A study of Homo sapiens with 6 samples.

Results

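The mammalian-wide L1 group (L1M) was followed in RNA of 6 libraries of H1 cells, a human embryonic stem cell line. Members were all sequences whose name starts with L1M, which gave 76 of the 1047 sequences in the deposited tables. Of these, 34 bore a 5' end name, ending in _5 or _5end, and 42 bore another name. By the letter after L1M there were 13 L1MA, 10 L1MB, 10 L1MC, 6 L1MD and 21 L1ME sequences, and the other 16 carried a number there (numbered L1M). In all cells a hairpin RNA that depletes EXOSC3 could be switched on with doxycycline. EXOSC3 is a structural subunit of the RNA exosome, a complex that removes nucleotides from RNA 3' ends and so trims or destroys RNA. EXOSC3r cells, clones 1 and 2, also carried an EXOSC3 transgene that resists the hairpin, and PB cells, which are 1 line, carried the empty vector instead. Each of the 3 lines gave 1 library with doxycycline (dox) and 1 without, from cells of passages 40 to 60. EXOSC3 itself was not analysed here, so neither its depletion nor its rescue was checked, and PB cells had no replicate of their own.

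L1 elements are retrotransposons: they spread by copying their RNA into DNA, which starts at the 3' end of the element and often stops early, so most genomic copies lack the 5' end. The L1M subfamilies are the old part of this lineage, with L1MA nearest to the primate L1 groups and L1ME among the oldest, and their copies can no longer move. They lie in large numbers inside introns and between genes, so their sequence is also carried by unspliced host gene RNA and by long noncoding RNA. Nuclear noncoding RNA is among the known substrates of the RNA exosome. A name in the tables stands for a consensus of many copies and has no single genome position. Whether a read came from a free-standing L1 RNA or from a host transcript cannot be told from these values, nor, in bulk RNA, can fewer cells be told from less RNA per cell.

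The total of assigned estimated counts lay between 3745262 and 5260196 per library, and covered these 1047 sequences alone. L1M sequences together took between 88679 and 125283 of these counts. Alu, a short repeat, took between 33.0% and 52.5% of all assigned counts and was highest in EXOSC3r clone 1 with dox, which moves every share and every TPM value (a level per length that sums to 1000000 in each library) of that library. HERVH, a retroviral element known to be active in human pluripotent stem cells, was detected in every library, between 457 and 1855 TPM. Its part in the results for L1M was not tested.

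Of the 76 L1M sequences, 74 had at least 1 count in some library. L1M6_5end and L1M6B_5end were at 0 in all 6 libraries. In the test, 73 members were kept among 699 sequences with at least 10 counts in at least 1 library, and 69 members had at least 10 counts in all 6. L1MCC_5, with a mean of 4.83 counts, was not tested, and was named after its values were seen. L1M7_5end was kept through a single library: it had 10 counts in PB cells with dox and 0 in PB cells without dox, and 3, 1, 5 and 3 counts in clone 1 with dox, clone 1 without, clone 2 with dox and clone 2 without.

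The level per length differed widely between subgroups. Over the 6 libraries, the median of the members' mean TPM was 207 for L1MA, 214 for L1MB, 9.88 for L1MC, 19.0 for L1MD, 3.41 for L1ME and 4.40 for numbered L1M. These medians mix 5' end names with others in unlike shares, from 1 of 13 in L1MA to 15 of 16 in numbered L1M. Without 5' end names they were 212, 254, 30.7, 29.9, 7.15 and 19.3 in the same order. The last is a single name, and L1MD did not stand above L1MC there. The members of 1 subgroup overlapped those of the next: L1MA ran from 2.56 to 474 TPM, L1MB from 1.74 to 454, L1MC from 0.220 to 319, L1MD from 1.81 to 117, and L1ME from 0.548 to 105. These spans are spreads between sequences, not replicate errors.

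**Figure D1:**
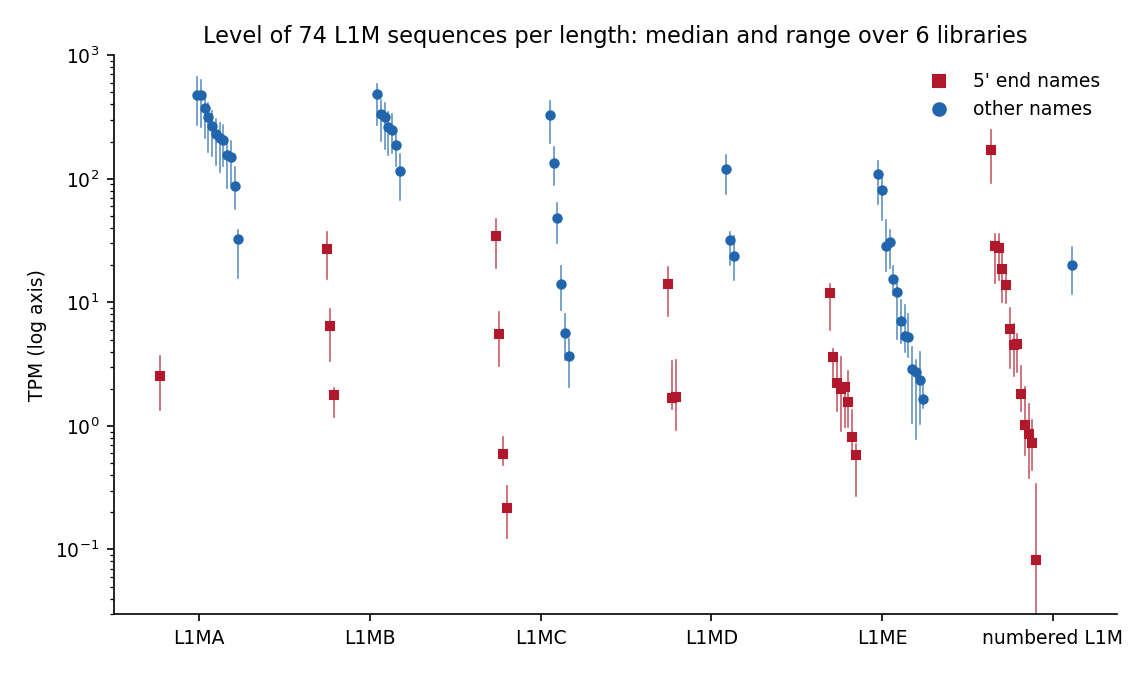
TPM (log axis) of the 74 L1M sequences with any count, by subgroup, with 5' end names as red squares and other names as blue circles. Each symbol is the median over the 6 libraries and each line runs from the lowest to the highest library; a line that reaches the axis goes down to 0. In each lettered subgroup the highest symbol is a name without a 5' end suffix, and L1M1_5 is the highest of the red squares.

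L1MA3, L1MB3 and L1MA1, consensus sequences of 1058, 930 and 1049 bases without a 5' end suffix, held the first 3 places among L1M sequences by TPM in all 6 libraries. L1MA3 had 270 and 374 TPM in EXOSC3r clone 1 with and without dox, 512 and 444 TPM in clone 2 with and without dox, and 670 and 572 TPM in PB cells with and without dox. L1MB3 had 271 and 366 TPM in clone 1, 513 and 462 TPM in clone 2, and 580 and 533 TPM in PB cells, each with dox and then without. L1MA1 ran between 260 and 626 TPM. All of the 3 were lowest in clone 1 with dox, the library with the highest Alu share, and highest in PB cells with dox. L1MA3 and L1MA1 averaged 474 and 455 TPM over the 6 libraries. Within libraries L1MA3 was the higher of both in 5 of 6, and in clone 2 without dox it had 444 TPM against 465 TPM for L1MA1, so their order was not the same in every library.

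Within L1MA the level fell broadly along the name numbers. L1MA1, L1MA2 and L1MA3 averaged 455, 360 and 474 TPM, and L1MA10, at the other end of the numbering, averaged 29.7 TPM. L1MA9 broke the order with 207 TPM. The comparison along the numbering, and the naming of L1MA9, were chosen after the values were seen. In L1MB the highest levels after L1MB3 were those of L1MB2 and L1MB7, with means of 326 and 301 TPM. L1MC was led by L1MC1 with 319 TPM, ahead of L1MC2 with 135 TPM and L1MC3 with 47.4 TPM. L1MD2 averaged 117 TPM, whereas L1MD3 and L1MD1 averaged 29.9 and 24.5 TPM. L1ME was led by L1ME1 with 105 TPM and by L1ME_ORF2 with 78.8 TPM, and L1ME3 averaged 31.0 TPM. ORF2 is the L1 reading frame that encodes its reverse transcriptase and endonuclease. Numbered L1M was led by L1M1_5 with 168 TPM, far ahead of L1M2_5 and L1M1B_5 with 26.6 TPM each.

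The order of the members hardly moved between libraries. The Spearman correlation of the members' TPM between any pair of libraries lay between 0.987 and 0.994 across 74 sequences, which is a description: the libraries share the consensus lengths and the way reads were divided, and sequences are not replicates.

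By counts, which are not corrected for length, the leading member was a 5' end sequence, L1M1_5, with a consensus of 3834 bases. It had 7840 counts with dox and 8204 without in EXOSC3r clone 1, 8809 and 8487 in clone 2, and 12922 and 11427 in PB cells. It thus took between 8.84% and 10.3% of all L1M counts, and the 10 leading members of each library took between 51.5% and 53.1%.

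The 5' end names were the low part of the group per length. Their median mean TPM was 2.19, against 97.1 for the other L1M names, while their median consensus length was 1971 bases, against 1045 bases. These medians mix the subgroups in unlike shares. Within L1MA (a single 5' end name), L1MB, L1MC, L1MD and L1ME the 5' end median was 2.56, 6.37, 3.21, 1.95 and 1.95 TPM. The other names there had medians of 212, 254, 30.7, 29.9 and 7.15 TPM, so the gap was narrowest in L1ME. The 5' end names took 17.0% of L1M counts with dox and 17.1% without in EXOSC3r clone 1, 17.9% and 17.6% in clone 2, and 18.7% and 18.2% in PB cells. The share was thus between 17.0% and 18.7% in every library, and dox moved it by -0.173, 0.288 and 0.478 percentage points in clone 1, clone 2 and PB cells. By TPM the share was between 6.0% and 6.6%. Without L1M1_5, a choice made after seeing the data, the other 5' end names took between 8.90% and 9.42% of the counts of the other L1M sequences.

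In 5 cases the table holds a 5' end name and the same name without that suffix, so that both can be set side by side. These cases were picked by name alone, after the values were seen. The sequence without the suffix had the higher TPM in all 6 libraries in each of them. The ratio of its TPM to that of the 5' end sequence lay between 15.7 and 19.3 for L1MB3, between 18.0 and 28.8 for L1MC4, between 7.62 and 21.3 for L1MD1, between 59.3 and 112 for L1MA9, and between 94.0 and 174 for L1MB4. L1MD1 had ratios of 9.13 with dox and 12.98 without in EXOSC3r clone 1, 7.62 and 12.6 in clone 2, and 17.1 and 21.3 in PB cells, so its ratio was lower with dox in each of the 3 lines, though on only 18 to 38 counts of L1MD1_5. L1MB3, the pair with the most counts, had ratios of 17.5 with dox and 19.3 without in clone 1, 17.2 and 18.8 in clone 2, and 15.7 and 16.4 in PB cells, also lower with dox in each line. The other pairs moved in both directions. L1MA9 had ratios of 84.7 and 62.2 in clone 1, 59.3 and 96.5 in clone 2, and 112 and 82.3 in PB cells, with dox and then without. L1MC4 had ratios of 18.0 and 19.4 in clone 1, 28.8 and 22.9 in clone 2, and 24.5 and 19.6 in PB cells. L1MB4 likewise was lower with dox in clone 1 and higher in clone 2 and PB cells. No test was made on these ratios.

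**Figure D2:**
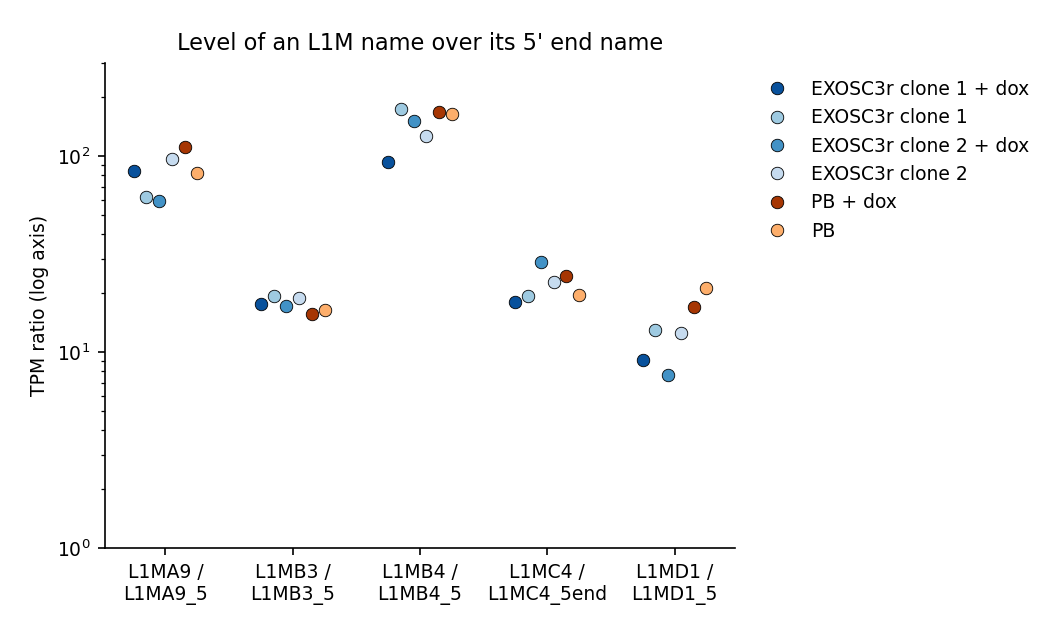
Ratio of the TPM of an L1M name to the TPM of the same name with a 5' end suffix (log axis), in each of 6 libraries; EXOSC3r libraries are blue and PB libraries orange, with darker shades for dox. The ratios run from 7.62 to 174, and those of L1MB3 differ least between libraries, from 15.7 to 19.3.

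The first question is whether L1M RNA changed with dox, which switches on the hairpin, as a share of the measured RNA. In EXOSC3r clone 1, L1M took 1.69% of assigned counts with dox (95% Clopper-Pearson interval 1.67 to 1.70) and 1.99% without (1.98 to 2.00). In clone 2 it took 2.5% with dox (2.49 to 2.52) and 2.31% without (2.30 to 2.33). In PB cells it took 2.74% with dox (2.73 to 2.76) and 2.59% without (2.57 to 2.60). The intervals cover counting error only. The share was lower with dox in clone 1 and higher in clone 2 and PB cells, so both clones of the same construct moved in opposite directions. The Alu share moved the other way in each line, with 52.5% with dox and 45.4% without in clone 1, 40.1% and 41.8% in clone 2, and 33.0% and 37.3% in PB cells.

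With Alu left out of the total, the L1M share was 3.55% with dox and 3.65% without in EXOSC3r clone 1, 4.18% and 3.98% in clone 2, and 4.09% and 4.13% in PB cells. The direction in PB cells was therefore reversed by leaving out Alu, and the ratio of dox over no dox in PB cells was 0.992 in place of 1.06. Relative to the summed counts of the housekeeping genes ACTB and GAPDH, L1M stood at 10.4% with dox and 11.7% without in clone 1, 17.7% and 16.1% in clone 2, and 21.7% and 19.3% in PB cells. On this scale clone 2 and PB cells were again higher with dox and clone 1 lower. All 4 EXOSC3r libraries lay below both PB libraries, as they did by assigned counts. With Alu left out this order did not hold: clone 2 with dox, at 4.18%, lay above both PB libraries. The order by ACTB and GAPDH was not particular to L1M. The younger L1HS and L1PA sequences together stood at 78.7% or less in EXOSC3r libraries and at 87.2% or more in PB cells. Scaled this way, the median log2 change of all tested sequences, EXOSC3r against PB, was -0.63 with dox and -0.47 without. In clone 1 the ratio of dox over no dox was 0.846 by assigned counts, 0.973 without Alu and 0.890 by ACTB and GAPDH.

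**Figure D3:**
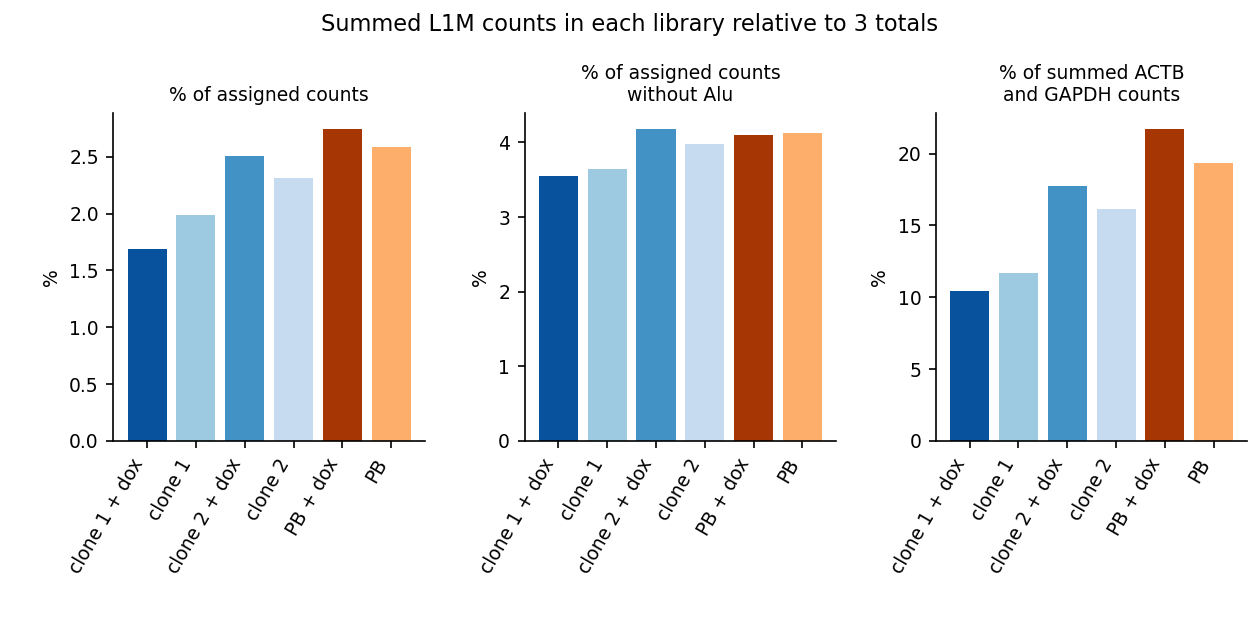
Summed L1M counts in each of 6 libraries as a percentage of all assigned counts (left), of assigned counts without Alu (middle) and of the summed ACTB and GAPDH counts (right); clone 1 and clone 2 are the EXOSC3r clones, and each bar is 1 library with no error. With Alu left out, the 6 bars lie between 3.55% and 4.18%, against 1.69% to 2.74% with Alu included.

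Within L1M the division between subgroups was nearly constant. L1MA took between 39.7% and 40.9% of L1M counts, L1MB between 22.7% and 24.4%, L1MC between 10.2% and 10.9%, L1MD between 3.22% and 3.50%, L1ME between 6.85% and 7.13%, and numbered L1M between 14.5% and 16.2%. The L1MA share was lower with dox in each of the 3 lines, with 39.7% with dox and 40.3% without in clone 1, 40.3% and 40.8% in clone 2, and 40.6% and 40.9% in PB cells. L1ME moved the other way, by 0.022, 0.026 and 0.212 percentage points in clone 1, clone 2 and PB cells. As log2 ratios, in the same order, the L1ME moves were 0.0045, 0.0052 and 0.0438. Their 95% half-widths from counting error were 0.05, 0.0493 and 0.0437. The L1MA moves were -0.0236, -0.0177 and -0.0121, with half-widths of 0.021, 0.0207 and 0.018. Most of these moves were thus within counting error. By TPM the L1ME share moved by log2 -0.0011, 0.0326 and 0.0601. No test was made on these sums.

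In single members the question of a dox response was tested with edgeR's quasi-likelihood test over all 699 sequences, with Benjamini-Hochberg adjustment and a threshold of 0.05. No L1M member passed in any of the 6 comparisons made. At an unadjusted p under 0.05 there was 1 member for dox in PB cells, against 4.01% of all sequences. This was L1M7_5end, which entered the test only through the PB library with dox, so nothing is read from that count. There were 0 for dox in EXOSC3r cells, against 3.15%. There were 0 for the difference between these responses, against 1.29% of all sequences. There was 1 for EXOSC3r against PB cells with dox (L1MD1_5), against 7.58%, and 1 for EXOSC3r against PB cells without dox (L1M3B_5), against 2.29%. There were 3 for dox over the 3 lines (L1MA10, L1MEC_5 and L1MB8, 4.11% of 73), against 10.3% of all sequences. Without the line as a block that last number was 1. With the line as a replicate block, the fit that uses the pairs, the numbers at an unadjusted p under 0.05 were 3 for dox in PB cells, 3 for dox in EXOSC3r cells, 0 for the difference, 3 for EXOSC3r against PB cells with dox and 5 without dox, and the adjusted p of every member was still above 0.05. The share of all sequences at an unadjusted p under 0.05 was not counted with the replicate block, nor over the 3 lines without a block. Nothing about L1M is therefore read from those numbers. Every alternative setting tried, DESeq2 and limma among them, also called 0 members.

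For dox in PB cells, 0 of 73 members passed, against 0.858% of all 699 sequences. The members' median log2 change was 0.01, against 0.00 over all sequences tested, with 39 members above 0 and 34 below. This split depends on the scaling: 58 members were above 0 by total assigned counts, 65 when scaled to ACTB and GAPDH and 66 with limma on log2(TPM + 1), where the median of all sequences moved as well, to 0.09, 0.18 and 0.21. L1M7_5end, at 10 counts with dox and 0 without, was kept through the library with dox alone, so no change is given for it. Members with small p besides it were these. L1MDB_5 had 11 CPM with dox and 6.24 CPM without (counts per 1000000 after TMM scaling, edgeR's correction for library composition), a log2 change of 0.82 ± 0.39 (SE) that rested on 61 and 32 counts. L1M4B, the only numbered L1M name without a 5' end suffix, had 347 CPM with dox and 301 CPM without (log2 0.20 ± 0.10). L1MA10 had 82.7 CPM with dox and 104 CPM without (log2 -0.33 ± 0.16). None of these passed, and each lone PB library was assumed to vary as the EXOSC3r clones do.

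For dox in EXOSC3r cells, 0 of 73 members passed, against 0.143% of all sequences (1 of 699, and 9 of 699 with the line as a replicate block). The median log2 change was 0.00 for the members and 0.01 for all sequences, and 39 members were above 0. By total counts 22 were above 0, and with limma on log2(TPM + 1) 10 were, where the median of all sequences was -0.03 and -0.11. The smallest p was that of L1M3B_5, which had 3.58 CPM with dox and 4.95 without in clone 1, and 3.17 and 7.50 CPM in clone 2 (log2 -0.88 ± 0.43, from 14, 20, 13 and 30 counts). L1MCA_5 had 281 and 305 CPM in clone 1 and 279 and 305 CPM in clone 2, with dox and then without (log2 -0.12 ± 0.07). L1MA10 had 84.9 and 99.3 CPM in clone 1 and 93.8 and 108 CPM in clone 2 (log2 -0.21 ± 0.11). In these 3 both dox libraries lay below both libraries without dox. L1MB8 had 739 CPM with dox and 639 without in clone 1, and 670 and 638 CPM in clone 2 (log2 0.14 ± 0.07). L1ME4 had 13.3 and 9.17 CPM in clone 1 and 12.2 and 9.0 CPM in clone 2, with dox and then without (log2 0.49 ± 0.25). In L1MB8 and L1ME4 the dox libraries lay above both libraries without dox. All 5 were picked for a small p on these same libraries, so such separation is no separate support. Its share over all sequences was not counted. None of these 5 changes passed (adjusted p = 1.00 each, edgeR).

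The difference between the responses, PB minus EXOSC3r, is what would separate an effect of losing EXOSC3 from an effect that remains with the resistant transgene. For this difference 0 of 73 members passed, and 0% of all sequences did. The median difference was 0.00 for the members and -0.01 for all sequences. Among members with a mean of at least 100 counts, the smallest p was that of L1MD3: it had 110 CPM with dox and 131 CPM without in PB cells, 141 and 117 CPM in clone 1, and 128 and 129 CPM in clone 2. Its difference of log2 changes was -0.39 ± 0.18, with a 95% interval from -0.82 to 0.05 (adjusted p = 1.00, edgeR). The clones themselves differed, since clone 1 was higher with dox and clone 2 was not.

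In the abundant members the intervals were narrow, with the spread estimated in part from the other sequences. For dox in PB cells, the 95% interval of the log2 change lay within a 2-fold change either way for 48 of the 49 tested members with a mean of at least 100 counts, and within 1.5-fold for 39 of them. Among the 24 members under 100 counts, 2 had an interval within 2-fold. For dox in EXOSC3r cells, 49 of the 49 abundant members were within 2-fold and 48 within 1.5-fold, and for the difference of responses 47 and 34 were. L1MA3, the highest by TPM, had 1436 CPM with dox and 1509 without in clone 1, 1506 and 1431 in clone 2, and 1537 and 1536 in PB cells. Its log2 change was 0.00 ± 0.07 in EXOSC3r cells and 0.00 ± 0.10 in PB cells. L1MB3 had log2 changes of 0.00 ± 0.06 in EXOSC3r cells and -0.10 ± 0.09 in PB cells, and L1M1_5 of 0.00 ± 0.07 and 0.07 ± 0.10. L1ME_ORF2 had log2 changes of 0.00 ± 0.06 in EXOSC3r cells and 0.07 ± 0.09 in PB cells.

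**Figure D4:**
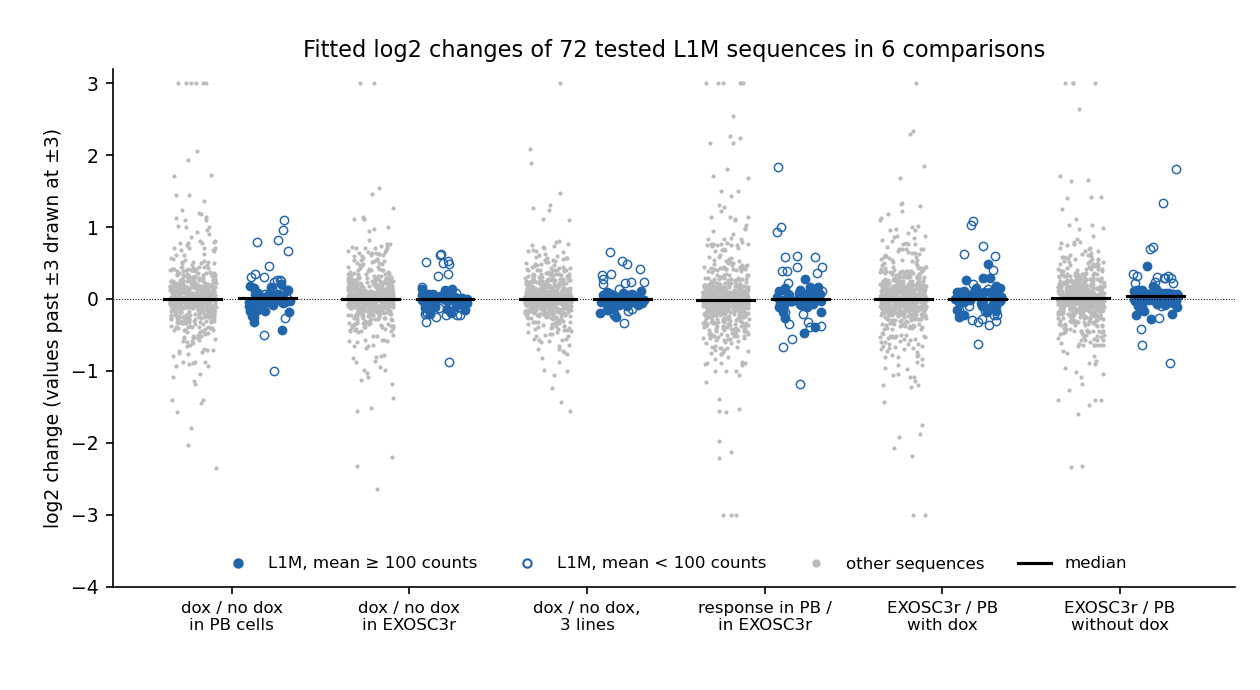
Fitted log2 changes in the 6 comparisons, first group over second as labelled, for L1M sequences (blue, filled at a mean of at least 100 counts, open below) beside all other tested sequences (grey). Black lines are medians over the 73 tested L1M members and over all 699 sequences; L1M7_5end, which has 0 counts in PB cells without dox, enters the median but is not drawn. The L1M medians lie between -0.01 and 0.04, and the L1M points farthest from 0 are open symbols.

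With the line as a block, dox was tested over the 3 lines at once, as 3 pairs of libraries. Again 0 of 73 members passed, against 1.72% of all sequences. The median log2 change was 0.00 for the members and for all sequences alike, and 37 members were above 0. This fit is the tightest of the 6: the interval lay within 1.5-fold for all 49 members with a mean of at least 100 counts. A total of 11 members, L1M7_5end among them, were higher with dox in 3 of 3 lines, against 16.6% of all sequences tested, and 10 were lower in 3 of 3, against 15.9% of all sequences, so both shares (15.1% and 13.7% of 73) were near the background.

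L1MA10, the L1MA name with the highest number, had the smallest p. It had 84.9 CPM with dox and 99.3 without in EXOSC3r clone 1, 93.8 and 108 CPM in clone 2, and 82.7 and 104 CPM in PB cells. It was lower with dox in 3 of 3 lines, and its 3 dox libraries lay below all 3 libraries without dox. L1MA10 was picked for its small p on these same libraries, so this separation is no separate support. How many of all sequences separate in this way was not counted. The log2 change was -0.25 ± 0.07 (95% interval -0.42 to -0.09), with an adjusted p of 0.172 (edgeR) and a range of 0.137 to 1.00 over the alternatives.

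L1MEC_5, a 5' end sequence of L1ME, had 84.6 CPM with dox and 91.4 without in clone 1, 88.2 and 107 CPM in clone 2, and 84.9 and 95.8 CPM in PB cells. It too was lower with dox in 3 of 3 lines without overlap, and was picked by its small p in the same way (log2 -0.19 ± 0.08, adjusted p = 0.422, edgeR). L1MCA_5 had 302 CPM with dox and 310 without in PB cells beside the clone values above (log2 -0.09 ± 0.04, adjusted p = 0.515, edgeR). L1MB8 was higher with dox in 3 of 3 lines, with 657 CPM with dox and 632 without in PB cells beside the clone values above (log2 0.11 ± 0.05, adjusted p = 0.426, edgeR). L1MD1_5 was also higher in 3 of 3 lines, with 8.44 and 6.44 CPM in clone 1, 9.26 and 5.00 CPM in clone 2, and 4.33 and 3.51 CPM in PB cells (log2 0.53 ± 0.28, adjusted p = 0.547, edgeR). None of these 5 members passed, and the L1MD1_5 values rest on the fewest counts.

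**Figure D5:**
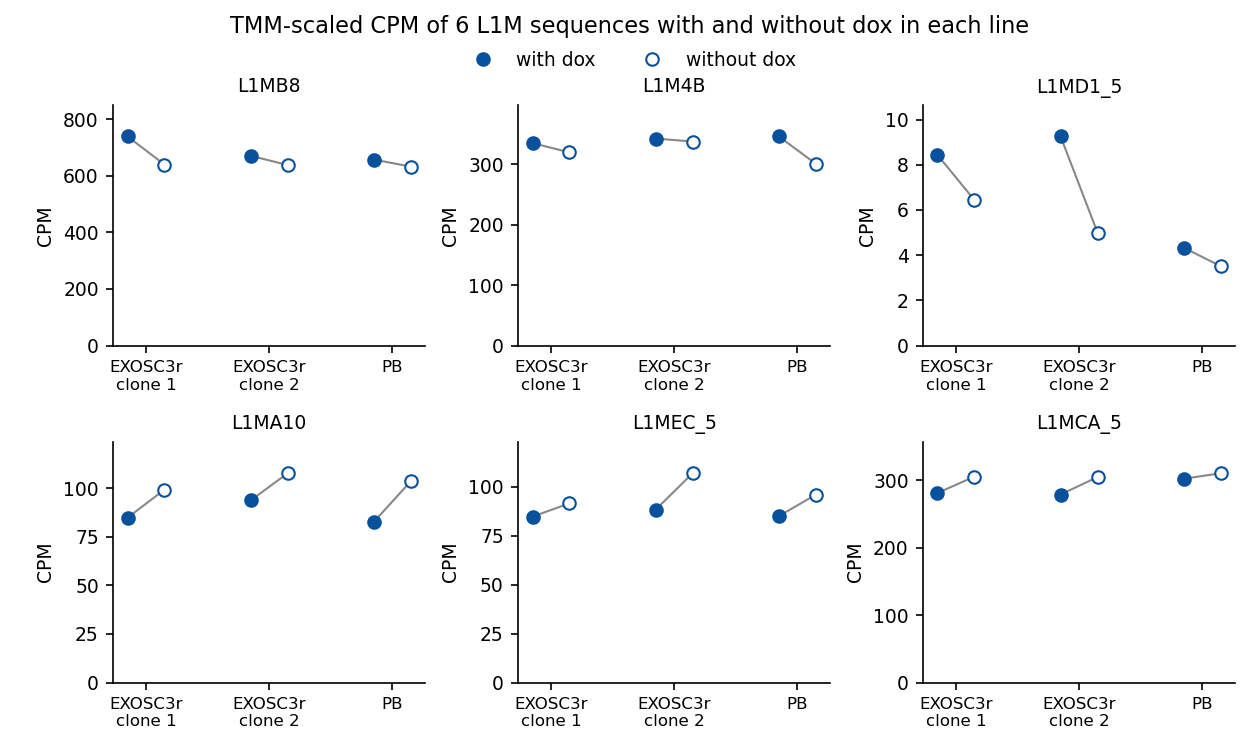
CPM scaled by TMM (linear axis from 0) of the 3 L1M sequences above 0 (top) and the 3 below 0 (bottom) with the smallest p for dox over the 3 lines; filled points are libraries with dox, open points without, and a grey line joins the libraries of 1 line. Each of the 6 sequences moves the same way in 3 of 3 lines, and none passed the adjusted threshold. They were picked by p on these libraries, so this agreement is no separate support.

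EXOSC3r cells were then set against PB cells. With dox, 0 of 73 members passed, against 1% of all sequences (7 of 699, and 22 of 699 with the line as a replicate block). The median log2 change was -0.01 for the members and 0.01 for all sequences, and 35 members were above 0. This count was 7 by total counts, 4 when scaled to ACTB and GAPDH and 2 with limma on log2(TPM + 1), where the median of all sequences was -0.40, -0.63 and -0.70. L1MD1_5 had 8.44 and 9.26 CPM in clones 1 and 2 and 4.33 CPM in PB cells, a log2 change of 1.03 ± 0.42 (adjusted p = 0.610, edgeR) that rested on 33, 38 and 24 counts. L1MB5 had 575 and 487 CPM in the clones and 443 CPM in PB cells (log2 0.26 ± 0.12). L1M1_5 had 2004 and 2146 CPM in the clones and 2333 CPM in PB cells (log2 -0.17 ± 0.09). In these 3 both clones lay on the same side of the PB library, but they were picked for a small p on these libraries and the changes did not pass. The share of all sequences with both clones on the same side was not counted.

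Without dox, 0 of 73 members passed, and 0% of all sequences did. The median log2 change was 0.04 for the members, with L1M7_5end as fitted or set to a floor of 3 counts in the library at 0, against 0.01 for all sequences. Of the members 43 were above 0, against 12, 5 and 6 under the same 3 scalings, with the median of all sequences at -0.26, -0.47 and -0.39. L1M3B_5 had 4.95 and 7.50 CPM in clones 1 and 2 and 1.76 CPM in PB cells, a log2 change of 1.81 ± 0.57 (adjusted p = 0.971, edgeR) from 20, 30 and 9 counts. With dox it had 3.58 and 3.17 CPM in the clones and 3.43 CPM in PB cells, so the PB library lay between the clones there. L1M1_5 again lay below PB cells, with 2032 and 2122 CPM in the clones and 2230 CPM in PB cells (log2 -0.10 ± 0.09).

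Taking the libraries with and without dox together, the 4 EXOSC3r libraries lay below both PB libraries in 5 of 73 members, against 10% of all sequences, and above both in 10 of 73, against 11.6%. The 5 were L1MA3, L1ME3, L1M1_5, L1M2B_5 and L1MEB_5, of which L1M2B_5 was named after its values were seen. L1ME3 had 79.2 and 73.8 CPM in the clones with dox and 80.5 and 73.3 CPM without, against 89.0 CPM in PB cells with dox and 90.2 CPM without. Among the younger L1 groups, the counts below both PB libraries were 8 of 21 for L1HS and L1PA, 4 of 8 for L1PB and 5 of 8 for other L1P names. The difference between these groups and L1M was not tested.

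The clones set the scale for the comparisons of group means, while the test over the 3 lines used the spread of the dox response among lines. The median difference between clones 1 and 2, as an absolute log2 ratio, was 0.11 with dox and 0.09 without in the 49 members with a mean of at least 100 counts, and 0.42 and 0.38 in the 24 members below. A further limit lies in the division of reads between related sequences. Counts were whole numbers in all 6 libraries (within 0.001) for 14 of the 32 5' end names with any count and for 3 of the 42 other names, while 38 of the 42 other names had a whole count in 0 of the libraries. A count that is not whole was divided between sequences by estimation, so the split of these members from near relatives is uncertain.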

How the data were processed

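Total RNA was extracted, ribosomal RNA removed and stranded libraries made, per the labels' protocols. The tools named in the submitters' processing notes are Salmon 0.13.0, Trimmomatic 0.36 and bcl2fastq 2.17. The source of the index, the options and the genome build are not given in the sources used here. Per the file headers, each deposited table lists 1047 sequences with their length, effective length, TPM and estimated count. The deposited estimated counts are not normalised, and the deposited TPM values sum to 1000000 over these sequences alone. Values of near-identical members depend on how reads were divided.

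Estimated counts were rounded to whole numbers and sequences with at least 10 counts in at least 1 library were kept (699 of 1047). Tests used edgeR 4.0.16 (R 4.3.3) with TMM scaling and Benjamini-Hochberg adjustment over all 699, with 4 group means for 5 comparisons (2 residual degrees of freedom, biological coefficient of variation 12.2%) and with line plus dox for the test over the 3 lines (2 residual degrees of freedom, 8.15%). The spread of each sequence was moderated toward that of all sequences, with 4.25 prior degrees of freedom for the 4 group means and 7.22 for line plus dox. The SE of a log2 change was taken as its size over the root of F. Intervals are 95% and use the residual and prior degrees of freedom together. Sums over members got no test. The code was checked on simulated counts. Python 3.11.15 and matplotlib 3.10.9 were used for sums and plots.

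Both libraries of a line are 1 cell line under both conditions, so the clone number marks a pair. Across sequences, clone 1's deviation from the clone mean with dox and that without dox had a Pearson correlation of 0.15 over all 699 and 0.03 over the 73 L1M members, and sequences are not replicates. Nothing says that libraries came from separate cultures beyond the lines, so p-values measure the spread between these clones. Libraries of the same group differed by more than counting error.

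Members and lists were chosen with earlier results of these data known. By rule, the text may name the 3 members with the highest mean TPM in each subgroup, up to 5 members in each direction with the smallest p per comparison (only some of these are named), and members at 0 or kept through 1 library only. Other names are marked as chosen later. Alternatives were DESeq2 1.42.0, its size factors, total counts, scaling to ACTB and GAPDH, no count filter, at least 10 counts in all 6 libraries, limma 3.58.1 on log2(TPM + 1) and log2(TPM + 0.1), leaving out Alu, ACTB and GAPDH, and the line as a replicate block or, over the 3 lines, no block. Each EXOSC3r library was also left out in the comparisons of group means, and each whole line in the test over the 3 lines. PB libraries were not left out singly. The consensus sequences themselves were not used here.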

Additional observations from a re-analysis of the deposited data

Results flagged for a closer look

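Each L1M subgroup was screened by sign alone, for its share of L1M counts and for its share of 5' end names. In 3 of these shares, PB cells moved one way with dox and both EXOSC3r clones the other way. Signs in 3 lines can fall this way by chance, at a rate that was not computed. These differences between lines were not tested, since they are sums over members with 1 library per line and condition. The L1MB share of L1M counts changed by -0.376 percentage points with dox in PB cells, and by 0.274 and 0.228 points in EXOSC3r clones 1 and 2. As log2 ratios these moves were -0.0237, 0.0163 and 0.0139. Each was within the 95% half-width from counting error (0.0241, 0.027 and 0.0271). The L1MD share of L1M counts changed by -0.01 percentage points in PB cells and by 0.099 and 0.064 points in clones 1 and 2. As log2 ratios these were -0.0047, 0.0412 and 0.0278, also within counting error (half-widths 0.0641, 0.0716 and 0.0724). The share of 5' end names within L1MB counts changed by -0.131 percentage points in PB cells, with 5.14% with dox (95% interval 4.88 to 5.40) and 5.27% without (5.01 to 5.55), and by 0.381 and 0.275 points in clones 1 and 2. The intervals with and without dox overlap in PB cells and in both clones. They were 4.46 to 5.03 with dox and 4.09 to 4.64 without in clone 1. In clone 2 they were 4.73 to 5.31 and 4.45 to 5.03. The difference of dox responses was tested for the single members, and 0 of 73 passed (edgeR), with 0 at an unadjusted p under 0.05.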

How the results depend on the processing

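No L1M member passed under any of the alternatives run, 14 for each of 5 comparisons and 13 for dox over the 3 lines, where the whole table gave between 0 and 28 calls. The lowest adjusted p of any member was 0.119 (L1MB5, EXOSC3r against PB with dox, line as replicate block). The replicate block changed no call on a member, though it raised most of the numbers at an unadjusted p under 0.05. No share of all sequences was counted beside them. Scaling to ACTB and GAPDH moved the median log2 change of all sequences to -0.63 for EXOSC3r against PB with dox and to -0.47 without dox, total counts to -0.40 and -0.26, and limma on log2(TPM + 0.1) to -0.77 and -0.42. For dox in PB cells these 3 moved it to 0.18, 0.09 and 0.23. L1M moved with them. Relative to such shifts of over 0.1, the direction of each member taken as named for a change was the same in the 494 recomputed values. These members were picked for a small p on the same libraries, and the shifts were subtracted. The agreement is therefore no separate support, least of all for dox in PB cells, where every alternative kept the same PB libraries. The L1M median minus that of all sequences moved by more than the spread between lines in 7 of 83 cases. This spread was the SD between clones 1 and 2, or among the 3 lines for dox over the 3 lines. For dox in PB cells the EXOSC3r value was used, and each SD rests on very few values. The L1M median minus that of all sequences was -0.0003 for EXOSC3r against PB with dox when scaled to ACTB and GAPDH, 0.0193 without dox at 10 counts in all 6 libraries, and 0.0324 for the difference of responses with limma on log2(TPM + 1). Leaving out single EXOSC3r libraries, it lay between -0.028 (without the clone 1 library with dox) and 0.0004 for dox in EXOSC3r cells, between 0.002 and 0.0525 (without the clone 2 library with dox) for the difference of responses, and between -0.0116 and 0.0107 (without the clone 1 library with dox) for EXOSC3r against PB with dox.

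The log2 ratio of L1M sums, dox over no dox, was 0.0837 in PB cells, -0.241 in clone 1 and 0.113 in clone 2. Relative to ACTB and GAPDH it was 0.1666, -0.1682 and 0.1363, and without Alu -0.0123, -0.0396 and 0.0717. The dox difference in the 5' end share, in percentage points, depended on the subgroup. In PB cells it was -0.055 within L1MA, -0.131 within L1MB, -0.049 within L1MC, 3.277 within L1MD, -1.113 within L1ME, -0.87 within numbered L1M and 0.036 without L1M1_5. In clone 1 it was 0.381 within L1MB, -1.529 within L1MC, -0.629 within L1MD, 0.176 within L1ME and -0.569 within numbered L1M. In clone 2 it was -1.006 within L1MC, 1.435 within L1MD and -0.782 within L1ME. The cause of these moves was not tested. Depth limits the 24 members under 100 counts, where few intervals lay within a 2-fold change, and PB cells have 1 library per condition.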
